A study of Mus musculus with 21 samples.

Results

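In a mouse series on heart failure in which the ejection fraction is preserved, 5 of 21 heart libraries carried high levels of 3 genes that mark atrial muscle, and these 5 hearts are described here against the other 16. The 5 are the libraries with the highest mean log2(TPM + 1) of Myl7, Myl4 and Sln. TPM, transcripts per 1e6, is a level corrected for transcript length. Because these RNA values chose the hearts, every difference between the 5 and the 16 hearts below is a description with its standard error (SE) and without a p-value.

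All animals were male C57BL/6NJ mice of 8 to 10 weeks when they were assigned to a diet. Chow, or a high-fat diet (HFD) in which fat supplied 60% of the energy, was given for 10 weeks, and whole-heart tissue was frozen 6 weeks after an adeno-associated virus with renin, or a null vector, had been injected behind the eye. Renin is the enzyme that starts the angiotensin cascade and raises blood pressure. The 4 groups were chow control (4 hearts), chow renin (6), HFD control (6) and HFD renin (5). The sample titles call both control groups novirus, while the series text speaks of a null vector. The labels give the tissue as heart, and the description as whole-heart tissue does not list which chambers were taken.

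Atria and ventricles are built from related muscle cells that use different versions of the same contractile proteins. Atrial muscle uses the regulatory light chain MYL7 and the essential light chain MYL4 where ventricular muscle uses MYL2 and MYL3, and in the mouse its calcium pump is restrained by sarcolipin (Sln) in place of much of the phospholamban (Pln). The base of the heart, where the atria join the ventricles, also holds the valves, with their cartilage-like matrix, the pacemaker and conduction cells, the roots of the great vessels and fat.

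The marker mean fell into separate ranges. It was 7.90 in chow control replicate 3, 7.68 in HFD control replicate 3, 7.63 in chow renin replicate 1, 7.39 in HFD renin replicate 3 and 6.80 in chow renin replicate 3. Just outside, chow renin replicate 5 had 2.03 and HFD renin replicate 4 had 1.74, and the lowest of the 16 was 0.752. Each group thus held at least 1 marker-high heart: 1 of 4, 2 of 6, 1 of 6 and 1 of 5 in the order given above. Of the 5, 4 carry replicate number 3. The labels say nothing of what that number stands for, and number and marker level cannot be told apart in those hearts.

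**Figure D1:**
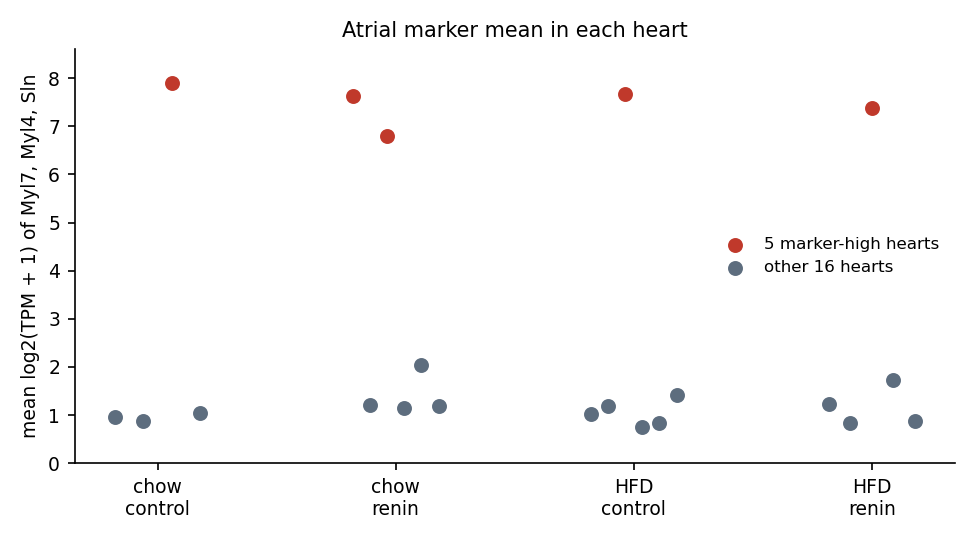
Mean log2(TPM + 1) of Myl7, Myl4 and Sln (vertical axis) in each heart, by diet and vector (horizontal axis). Each point is 1 heart, and the 5 red points lie between 6.80 and 7.90 while the 16 grey points lie between 0.752 and 2.03.

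The 3 genes that made the split had these levels. Myl7 stood at 700 TPM in chow control replicate 3, 595 in HFD control replicate 3, 538 in chow renin replicate 1, 442 in HFD renin replicate 3 and 305 in chow renin replicate 3, against 0.732 to 8.38 (median 1.90) in the other 16. In the same order of hearts, which is kept below, Myl4 stood at 323, 298, 262, 242 and 146 TPM, against 1.35 to 4.55 (median 1.92). Sln stood at 59.0, 47.4, 53.9, 42.6 and 29.6 TPM, against 0 to 0.551 (median 0.113). Chow renin replicate 3 was the lowest of the 5 for each gene and still lay far above all 16.

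Ventricular muscle RNA was present on both sides of the split, with overlapping levels. Myl2 ranged from 6973 to 8955 TPM in the 5 hearts and from 6116 to 10015 in the 16. The marker-high heart had the lowest Myl2 of its group in chow control (8357, others from 9079) and in HFD control (6973, others from 7561). In HFD renin it had the highest (7641, others up to 7244), and in chow renin both marker-high hearts lay within the range of the others. Myl7 amounted to 3.42% to 8.54% of Myl2 by TPM in the 5 hearts and to 0.00787% to 0.0906% in the 16. Since Myl7 is a gene that chose the hearts, that ratio describes the split and tests nothing. Reads of Myl7 and Myl4 were found in all 16 others, so these are called the other hearts and not ventricle alone. In bulk RNA, fewer cells of a type and less RNA per cell cannot be told apart.

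Depth did not separate the sides: libraries held 18.9 to 28.1 M estimated reads (mega reads) in the 5 hearts and 18.7 to 29.3 M in the 16. Mitochondrial genes took 30.9% to 33.7% of reads in the 5 and 29.8% to 38.2% in the 16.

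The starts of Myl7, Myl4 and Mybphl are shown because their RNA separated the hearts most widely among the contractile genes, with Sln, which the promoter table used did not list. Each line gives the 250 bases before the start from RefSeq (GRCm38.p6), read 5′ to 3′ on the gene's own strand. They are chr11:5898783-5899032 (minus strand) for Myl7, chr11:104550413-104550662 (plus strand) for Myl4 and chr3:108364661-108364910 (plus strand) for Mybphl. Capitals mark matches on either strand to any of 4 motifs. The letters searched for T-box factors were AGGTGT. For GATA factors the search used AGATAA, and for the half-site of nuclear receptors it used AGGTCA. For TEAD factors the letters were CATTCC. No overlapping matches were found.
Myl7: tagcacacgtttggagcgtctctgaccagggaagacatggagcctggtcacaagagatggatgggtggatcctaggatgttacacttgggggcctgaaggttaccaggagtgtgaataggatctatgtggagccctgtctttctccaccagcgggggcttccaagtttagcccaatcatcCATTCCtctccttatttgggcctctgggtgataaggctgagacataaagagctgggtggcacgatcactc
Myl4: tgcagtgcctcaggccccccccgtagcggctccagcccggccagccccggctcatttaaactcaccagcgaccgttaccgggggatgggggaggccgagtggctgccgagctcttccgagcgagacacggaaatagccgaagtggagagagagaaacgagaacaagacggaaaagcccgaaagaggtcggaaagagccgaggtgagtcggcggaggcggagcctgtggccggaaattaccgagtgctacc
Mybphl: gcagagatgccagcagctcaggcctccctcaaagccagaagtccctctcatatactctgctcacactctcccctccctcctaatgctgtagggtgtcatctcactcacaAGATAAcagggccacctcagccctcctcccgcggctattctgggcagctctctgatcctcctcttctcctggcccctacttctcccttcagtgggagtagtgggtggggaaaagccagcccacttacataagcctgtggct
Myl7 held 1 TEAD match starting 70 bases before the start, Mybphl held 1 GATA match starting 141 bases before it, and Myl4 held none. Of 32851 RefSeq promoter windows of this length, 12.6% held the TEAD letters, 9.99% the GATA letters, 11.8% the T-box letters and 14.0% the half-site. A match is a description of letters and not of binding.

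Over all genes, edgeR with title group as a block placed 402 of 15393 genes (2.61%) past an adjusted p of 0.05 between the sides, which is used here only to sort genes. There were 356 higher in the 5 hearts (2.31%) and 46 lower (0.299%). Of the tested genes, 259 passed the filter on low counts only with the marker-high hearts among the libraries, and 46 of the 356 are such genes, whose difference the filter itself favours. They stay out of the counts and medians of the atrial, sarcomere, adipose, skeletal muscle and transcription factor lists below. At least 2-fold higher were 164 genes, while 1 gene was at least 2-fold lower. In 76 genes (0.494%) all 5 hearts lay above all 16, and in 3 (0.0195%) all 5 lay below. The count of lower genes moved between 0 and 96 over the alternative settings, and that of higher genes between 9 and 478. The median log2 fold change of all genes was -0.01.

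Of 20 listed atrial genes that the rule did not use, 17 passed the filter in the other 16 hearts too. Of these, 7 were sorted as higher, beside 2.05% of all genes that passed there. Sorted as lower were 0 and as neither 10, with a median log2 fold change of 0.42. Of the other 3, 1 was untested and 2 passed only with the marker-high hearts, among them Mybphl. Mybphl, a myosin-binding protein of atrial and conduction muscle, had 36.9, 25.4, 23.9, 22.1 and 12.3 CPM (counts per 1e6 reads, TMM-normalized) in the 5 hearts, against 0.0348 to 0.515 (median 0.0918) in the others. No heart overlapped, and the log2 fold change was 7.44 (SE 0.23), a difference that the filter itself favours. Dkk3, which codes for a secreted glycoprotein of the Dickkopf family, had 124, 116, 80.2, 63.4 and 69.0 CPM, against 3.24 to 22.9 (median 9.25). Its log2 fold change was 3.61 (SE 0.32), again without overlap.

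Smaller separations were seen for the other atrial genes. The calcium channel subunit Cacna2d2 had 10.2 to 23.5 CPM in the 5 hearts and 2.11 to 6.40 in the 16. The kinase gene Sbk2 had 9.72 to 18.7 CPM against 0.696 to 7.54, and the lipid-transfer gene Stard10 had 36.6 to 62.0 against 9.42 to 35.2. These 3 did not overlap between the sides, where 0.494% of all genes had all 5 hearts above all 16. Cacna1d (1.13, SE 0.18), the atrial and pacemaker L-type channel, Tbx5 (0.59, SE 0.12), a T-box factor of atrium and conduction system, and Pam (0.58, SE 0.12), the amidating enzyme of atrial granules, were also sorted as higher on the log2 scale.

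The best known atrial product was not among them. Nppa, which codes for atrial natriuretic peptide, had 531, 246, 462, 370 and 240 CPM in the 5 hearts, and the others ran from 26.7 to 995 (median 163). The sides overlapped, and the log2 fold change was 0.81 (SE 0.49). Also sorted as neither were the acetylcholine-gated potassium channel genes Kcnj3 (0.21, SE 0.11) and Kcnj5 (0.42, SE 0.15), the potassium channel gene Kcna5 (-0.18, SE 0.18) and the muscarinic receptor gene Chrm2 (0.08, SE 0.08).

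Among all genes, 2.31% were sorted as higher and 0.299% as lower. Of 13 ventricular genes, 0 were sorted as higher and 1 as lower, with a median of -0.08. The lower one was Fhl2, a LIM-domain protein of the sarcomere, at 729 to 974 CPM against 832 to 1276 (log2 fold change -0.29, SE 0.07). Myl2 (-0.12, SE 0.07) and Pln (-0.07, SE 0.07) were sorted as neither. Of 19 sarcomere genes, Mybphl and the slow troponin Tnni1 (0.371 to 0.710 CPM in the 5 hearts) passed the filter only with the marker-high hearts. Of the other 17, the 1 sorted as higher was Tpm2 (0.84, SE 0.16), a tropomyosin whose 5 values of 28.5 to 44.9 CPM lay above the 11.4 to 27.2 of the others. Of 19 genes of fatty acid oxidation, 18 had a negative value and the median was -0.07, beside -0.01 over all genes; 0 were sorted to either side, where 2.61% of all genes were.

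Of 12 genes of the pacemaker and conduction tissue, 4 were sorted as higher, 0 as lower and 8 as neither, with a median of 0.41. The share sorted as higher over all genes was 2.31%. Shox2, a homeobox factor of the sinus node, had 3.20, 3.23, 4.02, 2.93 and 3.41 CPM in the 5 hearts and 0.536 to 2.39 (median 0.983) in the others, without overlap (log2 fold change 1.42, SE 0.18). The pacemaker channel gene Hcn4 (0.67, SE 0.17) and the T-type calcium channel gene Cacna1g (0.87, SE 0.20) overlapped. Cntn2, a marker of conduction fibres, had the largest value of the list at 1.66 (SE 0.46) and was sorted as neither.

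**Figure D2:**
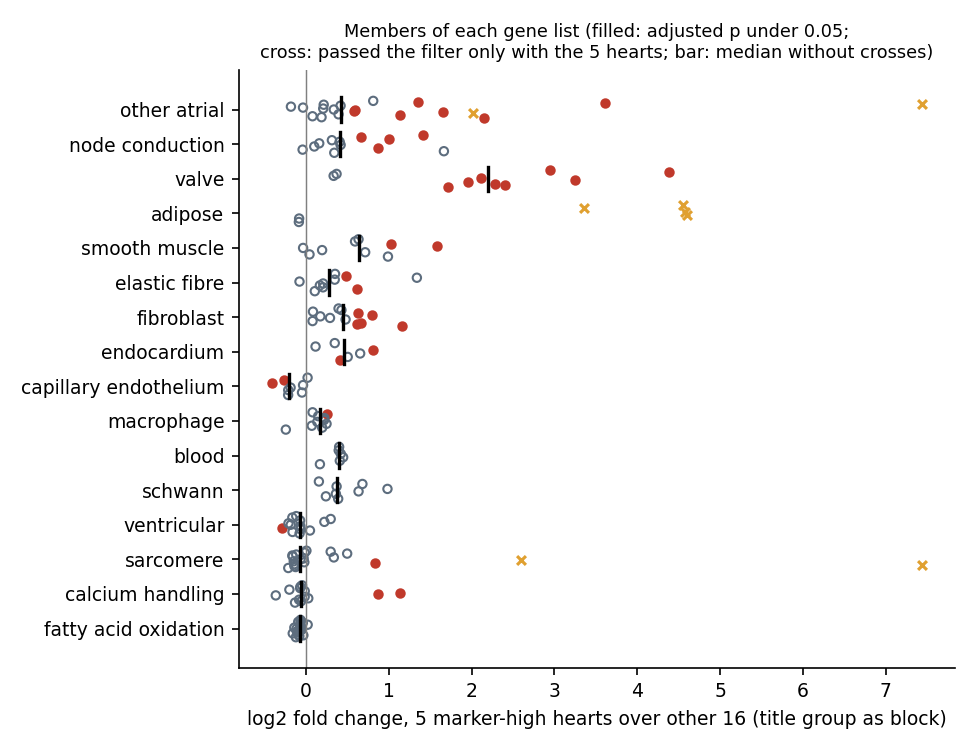
Log2 fold change of the 5 marker-high hearts over the other 16 (horizontal axis) for each tested member of 16 gene lists (vertical axis), with filled points for genes past the sorting threshold. Crosses are genes that passed the low-count filter only with the 5 hearts and are left out of the median bar, which needs 3 genes. The valve list (median 2.20) stands to the right of the other atrial list (0.42), and the ventricular list sits near 0 (-0.08).

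Valve and cartilage-type matrix genes were higher in the marker-high hearts too. Of 10, 8 were sorted as higher, 0 as lower and 2 as neither, and 6 did not overlap, with a median of 2.20. The shares over all genes were 2.31% sorted as higher and 0.494% with all 5 hearts above all 16. Chad, chondroadherin of the cartilage matrix, had 14.4, 9.38, 8.45, 4.72 and 6.27 CPM in the 5 hearts and 0.112 to 3.21 (median 0.316) in the others (log2 fold change 4.38, SE 0.47). Comp, cartilage oligomeric matrix protein, had 51.2, 37.1, 24.1, 24.7 and 25.1 CPM against 1.4 to 17.4 (median 2.75), with a log2 fold change of 3.25 (SE 0.33). Fmod, the collagen-binding fibromodulin, had 12.7 to 32.8 CPM against 1.20 to 12.7 (2.95, SE 0.38).

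The remaining valve genes had lower values. The Wnt inhibitor Wif1 had a log2 fold change of 2.40 (SE 0.49) and the cytokine-like Cytl1 of 2.28 (SE 0.31). The proteoglycan genes Acan (2.11, SE 0.51) and Prg4 (1.72, SE 0.21) and the link protein gene Hapln1 (1.96, SE 0.39) followed. The transcription factors Sox9 (0.37, SE 0.14) and Scx (0.33, SE 0.12) were sorted as neither. Outside the lists, the rule for named genes added Cilp2, a cartilage matrix protein (4.32, SE 0.40), Angptl7, a secreted angiopoietin-like protein (3.56, SE 0.35), Col8a2, a short-chain collagen (2.51, SE 0.37), and Sost, the Wnt inhibitor sclerostin (2.61, SE 0.35).

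White fat genes were detected at low levels in the marker-high hearts. Of 10 listed adipose genes, 4 were untested and 4 passed the filter only with those hearts, so no count or median over the list is given. Adipoq, which codes for adiponectin, had 2.58, 1.85, 0.981, 0.822 and 0.704 CPM in the 5 hearts against 0 to 0.257 in the others, a log2 fold change of 4.55 (SE 0.45). Cfd, the fat-cell protease adipsin, had 16.8, 1.06, 5.04, 3.11 and 1.71 CPM against 0 to 0.515 (4.61, SE 0.45). The lipid droplet genes Cidec (4.58, SE 0.41) and Plin1 (3.36, SE 0.39) are the other 2 of these 4. The filter itself favours a difference in all 4, so their values only describe the hearts. Cidea (-0.08, SE 0.08) and Slc36a2 (-0.09, SE 0.11), which heart muscle also expresses, passed in both sets of hearts and were sorted as neither. Of the untested adipose genes, Ucp1, the brown-fat uncoupler, was at 0 in 4 of the 5 hearts and at 0.710 CPM in HFD control replicate 3. Car3, a carbonic anhydrase abundant in fat (4.17, SE 0.32), and Cyp2e1, a cytochrome P450 (3.85, SE 0.43), were also among the named genes. Of no list were Lmntd1 (4.00, SE 0.39), Tmem163 (3.62, SE 0.27), a zinc transporter, and Alox8 (2.80, SE 0.21), a lipoxygenase, and their 5 values lay above all 16.

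**Figure D3:**
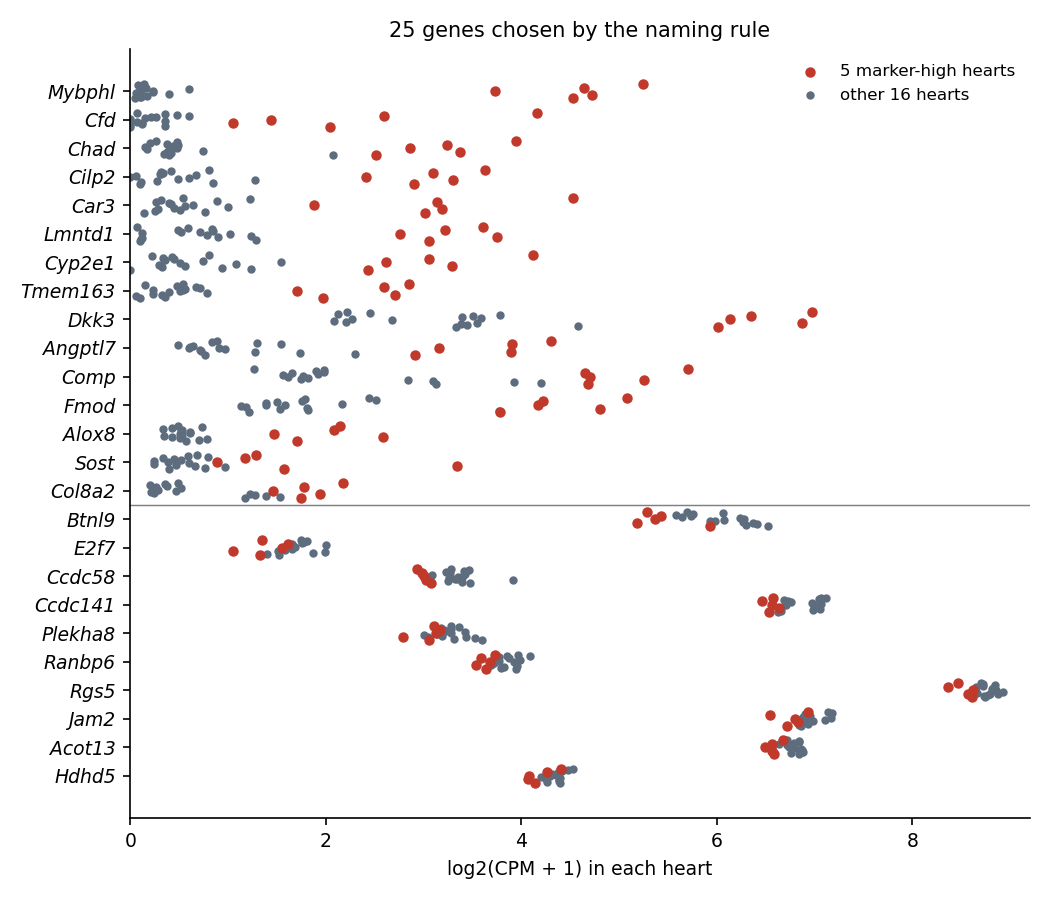
Log2(CPM + 1) (horizontal axis) of the 15 genes with the highest and the 10 with the lowest log2 fold change under the naming rule (vertical axis, divided by a line), 1 point per heart. The 5 marker-high hearts (red) lie to the right of the other 16 (grey) for Mybphl, Dkk3 and Comp, while the lower genes differ by little, with Btnl9 at -0.58 the furthest on the log2 scale.

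Some genes of connective tissue and vessel wall were sorted as higher, though most members of these lists were sorted as neither. Among all genes, 2.31% were sorted as higher. Of 12 fibroblast genes, 5 were sorted as higher and 7 as neither (median 0.45), led by the calcification inhibitor Mgp (1.16, SE 0.21) and the proteoglycan lumican, Lum (0.79, SE 0.13). Of 9 smooth muscle genes, 2 were sorted as higher, the calponin gene Cnn1 (1.58, SE 0.38) and Tagln (1.02, SE 0.25). HFD control replicate 3 held the highest smooth muscle values, with Myh11, the smooth muscle myosin, at 142 CPM against 55.7 to 82.5 in the other 4 marker-high hearts. Of 10 elastic fibre genes, 2 were sorted as higher, Fbln1 (0.62, SE 0.14) and Fbln5 (0.48, SE 0.09). The summed levels overlapped between the sides, at 483 to 857 CPM against 420 to 667 for smooth muscle and 795 to 1021 CPM against 662 to 1119 for elastic fibres.

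Of 6 endocardial genes, 2 were sorted as higher, the fenestral protein gene Plvap (0.80, SE 0.21) and Cgnl1 (0.41, SE 0.07). Of 8 capillary genes, 0 were sorted as higher and 2 as lower, the VEGF receptor Kdr (-0.42, SE 0.10) and the endothelial cadherin Cdh5 (-0.26, SE 0.06). The shares over all genes were 2.31% higher and 0.299% lower. The named lower genes included 2 more of vessel cells, Btnl9 at 35.2 to 59.8 CPM against 46.8 to 90.8, and the pericyte regulator Rgs5 at 329 to 391 CPM against 402 to 487, which did not overlap. The other 8 named lower genes lay between -0.55 for the cell-cycle repressor E2f7 and -0.19 for Hdhd5. With 1 heart left out, E2f7 lost its call in 16 of 21 fits, Hdhd5 in 15 and Plekha8 in 17. The rest of the named lower genes lost it in 0 to 6. A difference between endothelial types was not tested.

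Lists of other cell types and tissues held few sorted genes, and with so few tested genes a count of 0 lies near the 2.31% sorted as higher among all genes. Among tested genes, 0 of 2 lung, 0 of 1 thymus, 0 of 7 lymphocyte, 0 of 6 blood, 0 of 7 lymphatic, 0 of 8 Schwann cell and 0 of 6 autonomic neuron genes were sorted as higher. All 6 blood genes had a positive value (median 0.40), and their summed level was 860 to 1310 CPM in the 5 hearts against 546 to 1078 in the 16. All 8 Schwann cell genes were positive as well (median 0.38). Whether RNA from these sources took part in the difference was not tested. Of 12 epicardial genes, the 1 sorted as higher was the keratin gene Krt18 (1.23, SE 0.24). The fast skeletal myosin genes Myh1, Myh2 and Myh4 stood at 0 to 0.261 CPM in every heart, while 2 of 7 genes of the skeletal muscle list that passed in both sets of hearts were sorted as higher, Mybpc2 (1.19, SE 0.17) and Atp2a1 (1.30, SE 0.25). Of 10 macrophage genes, the 1 sorted as higher was Csf1r (0.25, SE 0.07), the receptor for their growth factor, and of 10 genes of the central nervous system it was Slc17a7.

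The lists that cut across cell types share members with the atrial and pacemaker lists, and 2.31% of all genes were sorted as higher. Of 25 ion channel and connexin genes, 3 were higher, among them Hcn4 and the potassium channel subunit Kcne1. Of 13 calcium-handling genes, 2 were higher. Of 10 genes of muscarinic and adenosine signalling, 3 were higher: Gnao1 (0.63, SE 0.08), a G-protein subunit, Ache (0.57, SE 0.12), the acetylcholine-splitting enzyme, and Rgs6 (0.32, SE 0.07), a brake on such signals. Of 22 transcription factors of the heart that passed in both sets of hearts, the 2 sorted as higher were Shox2 and Tbx5. Gata5, a factor of endocardium that passed only with the marker-high hearts, had 0.679 to 1.70 CPM against 0 to 0.628.

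The 5 hearts were not ranked alike for each group of genes. Summed CPM of Myl7, Myl4 and Sln ran from 238 to 566 in the 5 hearts and from 1.76 to 6.86 in the others. The valve list summed to 211 in chow control replicate 3, 177 in HFD control replicate 3, 135 in chow renin replicate 1, 106 in HFD renin replicate 3 and 125 in chow renin replicate 3, against 22.5 to 89.1 in the others. The heart at 89.1 was HFD renin replicate 4, whose marker mean was second among the 16. Chow renin replicate 5, the first of the 16 by marker mean, summed to 33.3. The adipose list summed to 41.0 to 65.9 in the 5 hearts and to 34.3 to 51.9 in the 16, an overlap carried by Cidea and Slc36a2.

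**Figure D4:**
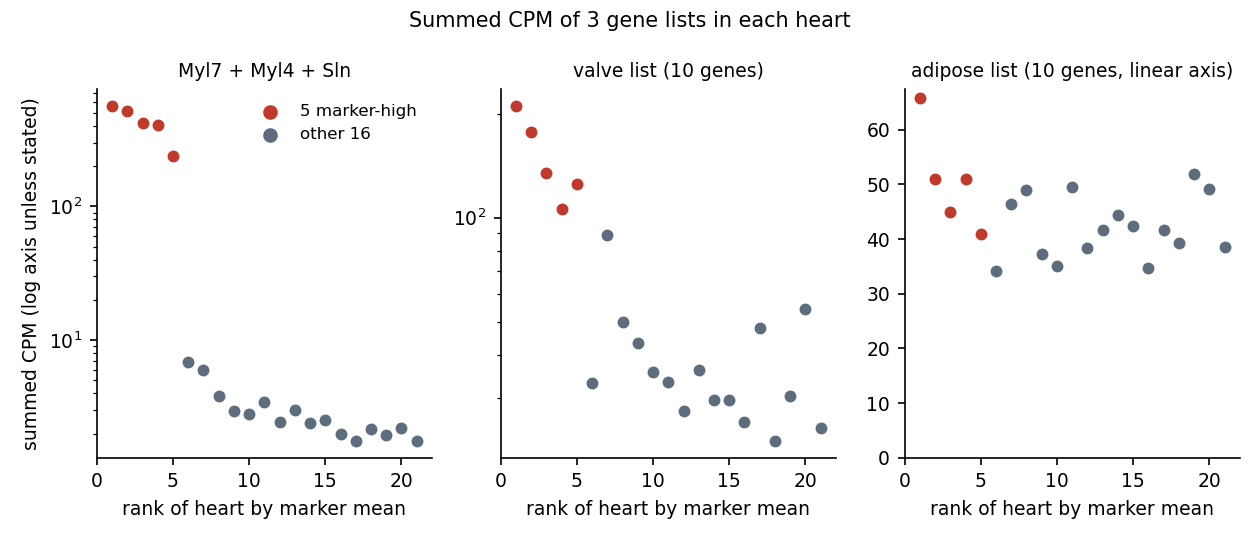
Summed CPM (vertical axes, log for the first and second panels and linear for the third) of Myl7 + Myl4 + Sln, of the valve list and of the adipose list, with hearts ordered by their marker mean (horizontal axes, rank 1 highest). The 5 marker-high hearts (red) lie above the other 16 (grey) in the first panel and the second. In the third panel 4 of the 5 lie within the 34.3 to 51.9 of the 16, and chow control replicate 3 lies above it at 65.9.

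A test that the split does not force is whether genes follow the marker mean within the 16 other hearts. In edgeR with title group as a block, 0 of 15410 genes (0%) had a slope past an adjusted p of 0.05, 836 had an unadjusted p under 0.05, and DESeq2 called 0. Leaving out 1 heart at a time gave 0 to 7 calls, with 7 when chow renin replicate 5, the highest of the 16, was left out. The range of the marker mean in the 16 hearts was narrow, from 0.752 to 2.03, and a p above the threshold does not show that no gene follows it.

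Since marker-high hearts sit in every group, the comparisons of diet and renin were fitted with all 21 hearts and again with the 16. The labels do not say more than that the hearts are separate samples, so these p-values measure the spread between these samples. HFD renin against chow control gave 1262 called genes of 15208 (8.30%) with 21 hearts and 1264 of 15134 (8.35%) with 16, of which 945 were shared. Chow renin against chow control gave 2047 (13.5%) and 1556 (10.3%), with 1457 shared. HFD renin against HFD control gave 1696 (11.2%) and 1487 (9.83%), with 1248 shared, and left-out ranges of 696 to 2393 and 509 to 2650. HFD control against chow control gave 10 (0.0658%) and 0 (0%). At an unadjusted p under 0.05 that last comparison had 1667 and 1431 genes, and DESeq2 called 124 and 70.

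The chow renin hearts stood apart in markers of nervous tissue, whichever side of the split they were on. The 10 central nervous genes summed to 239 to 365 CPM in the 6 chow renin hearts, against 93.2 to 156 in the other 15. All 10 were called higher in chow renin against chow control in edgeR, with 21 hearts (median 2.32) and with 16 (median 2.30), and 0 of 10 in each of the other comparisons. Among all genes, 1537 of 15208 were called higher in chow renin with 21 hearts and 1345 of 15134 with 16. The 8 tested Schwann cell genes summed with 1 untested gene to 87.3 to 140 CPM against 25 to 56.9, with 4 called higher in chow renin. The autonomic neuron list summed to 26.5 to 43.7 CPM against 10.4 to 17.3, with 4 of 6 tested genes called higher, while Th and Chat, the transmitter-synthesis enzymes of such neurons, stood at 0 to 0.331 CPM in every heart. What part this has in the calls of chow renin was not tested. Fits without the chow renin hearts, chosen after seeing the data, gave 729 calls (21 hearts) and 879 (16 hearts) for HFD renin against chow control, and 969 and 1022 against HFD control.

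Of the genes on the lists or named above, 279 could be tested in both fits. In HFD renin against chow control, 26 of them (9.32%) were called with 21 hearts, near the 8.30% of all genes, and 44 (15.8%) with 16, beside 8.35% of all genes, with 23 called in both. In chow renin against chow control the number was smaller without the marker-high hearts, at 42 (15.1%) and 35 (12.5%), near the 13.5% and 10.3% of all genes, with 31 in both, and these include the called genes of the nervous-tissue lists. In HFD renin against HFD control it was 40 (14.3%) and 49 (17.6%), beside 11.2% and 9.83% of all genes, with 32 in both. In HFD control against chow control it was 0 in each fit. The genes called only without the marker-high hearts numbered 21 in HFD renin against chow control. They were picked out here by that change of call, and several are valve, matrix or atrial genes. The 3 called only with all hearts were Myh7, Kcnq1 and Tbx18.

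Comp was the gene whose value moved furthest among the valve genes called. Without marker-high hearts it had 1.4, 2.95 and 2.73 CPM in chow control and 7.53, 14.2, 17.4 and 7.73 in HFD renin, without overlap. The marker-high heart of each group had 51.2 and 24.7 CPM. In edgeR, Comp differed by -0.02 (log2, SE 1.13, adjusted p = 0.993) with 21 hearts and 2.31 (SE 0.42, adjusted p = 0.00438) with 16. Leaving out each of the 16 in turn kept the adjusted p between 0.000308 and 0.0271. The lowest log2 value of those fits, 2.05, came without chow control replicate 1. With all 21 hearts and the split as a term in the edgeR fit, the value was 1.47 and the adjusted p 0.0756.

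Prg4, lubricin of joint and valve surfaces, had 7.05, 6.62 and 8.72 CPM in chow control and 17.4, 21, 23.0 and 23.4 in HFD renin outside the marker-high hearts. It was higher, by 1.5 as a log2 fold change (SE 0.21, adjusted p = 0.000492 in edgeR) with 16 hearts, against 0.35 (SE 0.63, adjusted p = 0.784) with 21. Lum had 32.1, 32.5 and 28.7 CPM in chow control and 55.1, 66.6, 64.8 and 47.8 in HFD renin, and rose by 0.91 (SE 0.16, adjusted p = 0.00231), against 0.58 (SE 0.32, adjusted p = 0.277) with 21. Neither gene overlapped between those hearts. The microfibril gene Mfap4 rose by 2.54 (SE 0.51, edgeR adjusted p = 0.0100), against 1.38 (SE 0.65, adjusted p = 0.205) with 21 hearts.

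**Figure D5:**
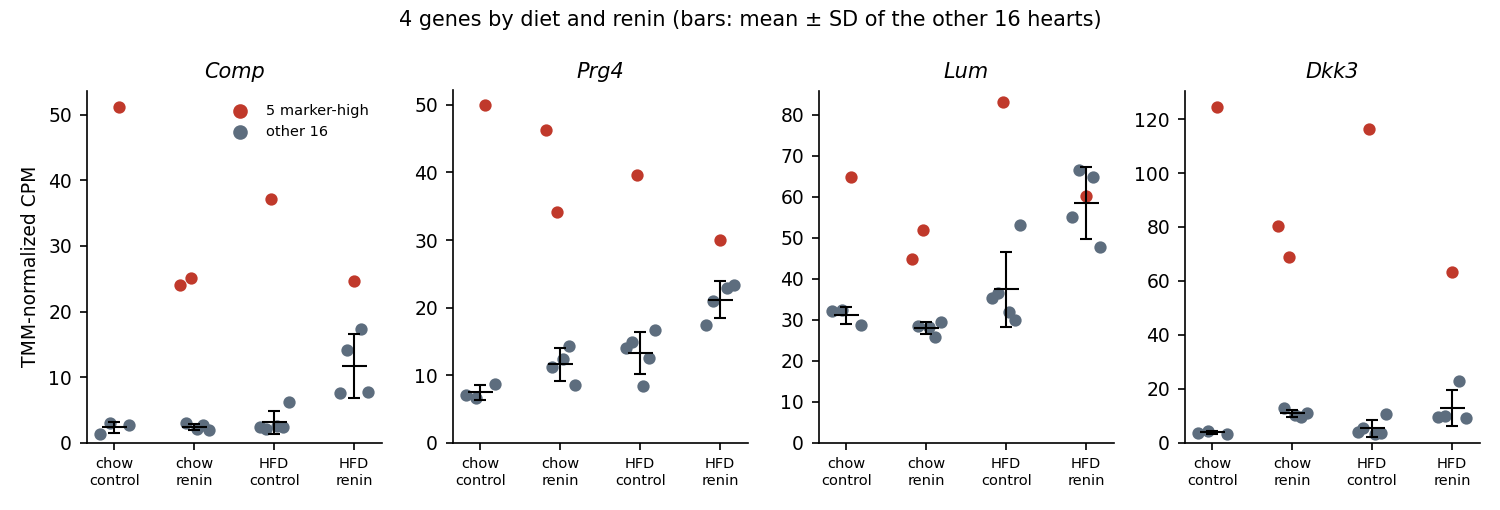
TMM-normalized CPM (vertical axes) of Comp, Prg4, Lum and Dkk3 in each heart by diet and vector (horizontal axes), with mean ± SD of the other 16 hearts as black bars. The red marker-high heart of chow control stands at 51.2 CPM for Comp and 124 for Dkk3, above every grey point, while the grey points of HFD renin lie above those of chow control in each panel.

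Some genes sorted as higher with the atrial markers also rose with renin in the other hearts. Gnao1, a G-protein subunit, had 29.5, 25.8 and 26.4 CPM in chow control, 39.4 to 52.0 in chow renin and 46.5 to 51.4 in HFD renin outside the marker-high hearts. It rose by 0.76 (SE 0.09, edgeR adjusted p = 6.08e-06) in chow renin and by 0.85 (SE 0.09, adjusted p = 4.28e-05) in HFD renin with 16 hearts. With 21 hearts the values were 0.61 (SE 0.22, edgeR adjusted p = 0.0755) and 0.64 (SE 0.23, adjusted p = 0.0924). Gnao1 is also abundant in neurons, and its rise in chow renin stands beside that of the central nervous list, whose part was not tested. In HFD renin that list summed to 93.2 to 152 CPM against 120 to 132 in chow control. The myosin-binding protein gene Mybpc2 rose by 1.43 (SE 0.27, edgeR adjusted p = 0.00548) in HFD renin with 16 hearts, against 1.04 (SE 0.47, adjusted p = 0.184) with 21.

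Dkk3 turned direction. For HFD renin against chow control it stood at -0.56 (log2, SE 1.28, edgeR adjusted p = 0.830) with 21 hearts, and with 16 at 1.75 (SE 0.44, adjusted p = 0.0256). The 16-heart call was lost in 3 of 16 fits that left out 1 heart, up to an adjusted p of 0.0994 in edgeR, and in the fit without chow renin hearts (adjusted p = 0.0649). The lowest value with 1 heart left out, 1.31, came without HFD renin replicate 4. That heart was second among the 16 by marker mean, and what part its marker level had was not tested. In chow renin Dkk3 was -0.09 with 21 hearts and 1.53 with 16 (SE 0.44, edgeR adjusted p = 0.0383). There, 8 of 16 fits that left out 1 heart lost the call. Tbx5 fell by 0.69 in HFD renin with 16 hearts (SE 0.17, edgeR adjusted p = 0.0182), against -0.58 (adjusted p = 0.160) with 21, and 2 of 16 such fits lost the call.

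Nppa and Myh7, genes of cardiac stress, were compared with both control groups. Nppa rose in HFD renin against HFD control by 2.40 (SE 0.64, edgeR adjusted p = 0.0239) with 21 hearts and by 2.96 (SE 0.71, adjusted p = 0.0227) with 16, and fits that left out 1 heart lost the call in 3 of 21 and 4 of 16 cases. Against chow control Nppa had 0.95 (SE 0.70, edgeR adjusted p = 0.443) with 21 hearts and 1.54 (SE 0.81, adjusted p = 0.274) with 16. Myh7, the slow ventricular myosin, rose in HFD renin against HFD control by 2.57 (SE 0.49, edgeR adjusted p = 0.00370) with 21 hearts and by 2.65 (SE 0.61, adjusted p = 0.0195) with 16, with the call lost in 0 of 21 and 2 of 16 such fits. Against chow control Myh7 rose by 2.05 (SE 0.56, edgeR adjusted p = 0.0308) with 21 hearts, a call lost in 5 of 21 such fits, and had 2.24 (SE 0.73, adjusted p = 0.0802) with 16.

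Diet and vector were assigned, while no label fixes the chamber make-up of a heart. Whether tissue sampling set the marker level was not tested.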

How the data were processed

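RNA of 21 hearts was sequenced. For each, the authors deposited a transcript table with estimated counts (not normalized) and TPM, per the file headers. The submitters' processing notes name Salmon 1.10.2, DESeq2 1.40.2 and GRCm38. Transcripts (119215 a table, 97.9% matched to GENCODE M21) were summed to genes and rounded, since tests had been laid out for whole counts. Of 23689 genes with reads, filterByExpr kept 15393, with 99.97% of summed reads. Library totals were 18.7 to 29.3 M reads (mega reads).

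edgeR 4.0.16 (R 4.3.3) quasi-likelihood F tests used TMM factors of 0.880 to 1.09 and Benjamini-Hochberg adjustment at 0.05. The split was fitted with title group as block, and the group comparisons with 21 and with 16 hearts. CPM are TMM-normalized. DESeq2 1.42.0 was an alternative, as were other factors, filters, splits, terms and left-out hearts. The scripts were tested on simulated data. Replicates of a group were not a single library deposited again (chi-square per degree of freedom at least 3.61). The submitters' matrix was not used here.

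Members and lists were chosen with earlier results of these data known. Named genes were called, protein coding, of mean CPM at least 1, with each of the 5 hearts beyond the other hearts of its own group: the 15 highest and 10 lowest, plus list members. Some list members are counted but not reported here by name.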

Additional observations from a re-analysis of the deposited data

Results flagged for a closer look

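Dixon's gap test, run 28 times over groups of 4 to 6 hearts, marked 6 values, where chance marks about 1 in 20. For 3 of them, the marker mean of replicate 3 at 7.90 in chow control, 7.68 in HFD control and 7.39 in HFD renin, the value is the one that chose these hearts, so the mark is a description and no check on it. In chow renin, with 2 marker-high hearts, no heart was marked. The summed CPM of the valve list stood apart in chow control replicate 3, at 211 against 22.5 to 29.7 in the other hearts of its group, and in HFD control replicate 3, at 177 against 24.6 to 49.8. The summed CPM of the ventricular list in chow control replicate 3 was 12664, below the next heart at 14602.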

How the results depend on the processing

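The count of 402 genes sorted by the split was 180 without the block of title groups, 103 at a mean of at least 20 CPM, 254 with the 4 and 226 with the 6 highest hearts, and 187 without the chow renin group. The 46 lower genes were 11, 13, 23, 9 and 7 in these settings, 96 in DESeq2 and 0 with replicate number as a replicate block. Leaving out 1 heart gave 146 to 551 (lower genes 5 to 73), with 146 without HFD control replicate 3 and 200 without chow control replicate 3. The 25 named genes were chosen as called and separated in these same data, so the direction they kept is no independent check. Mybphl and Cfd among them passed the low-count filter only with the 5 hearts. Of 754 values, 631 kept direction and side of the threshold, 123 kept direction and lost the call (41 of them with a larger fold) and 0 reversed. With 1 heart left out, the lower genes Plekha8, E2f7 and Hdhd5 lost the call in 17, 16 and 15 of 21 fits. The other lower genes lost it in 0 to 6. Genes under 20 CPM were not tested at that filter, and 2 had no adjusted p in DESeq2. The slope gave 0 to 7 calls with 1 heart left out.

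Without chow renin, HFD renin gave 729 calls against chow control and 969 against HFD control. HFD control against chow control (10 calls) gave 3 without chow renin, 0 without the marker-high hearts, 4 with the split as a term, 124 in DESeq2 (70 with 16 hearts) and 0 to 57 with 1 heart left out (0 to 12 with 16 hearts). With 1 heart left out, HFD renin gave 567 to 1722 calls against chow control (16 hearts: 503 to 1978) and 696 to 2393 against HFD control (16 hearts: 509 to 2650). The cause was not tested.

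Dkk3 and Comp changed sign in HFD renin against chow control, from values with all hearts that were smaller than their SE. They stood at 1.75 and 2.31 without the marker-high hearts and at 0.87 and 1.47 with the split as a term. With the marker mean as a term they stood at 0.90 and 1.5. Leaving out 1 heart gave -1.40 to 2.60 and -0.40 to 2.62. Dkk3 also changed sign in chow renin against chow control (1.53, 0.58 and 0.62, left-out range -0.59 to 3.08) and in HFD renin against HFD control (1.26, 0.80 and 0.78, left-out range -0.90 to 2.10). Angptl7 in the latter became -0.0059 with upper-quartile factors (left-out range -0.49 to 2.03).

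Same-numbered hearts had a median correlation of deviations of 0.116 (-0.283 to 0.485, 16 of 28 over 0.1; other numbers -0.0227), and 7 of 21 hearts correlated best with their own number. In the 16 hearts the median was 0.0508 (5 of 19 over 0.1), with 2 of 16 best with their own. Not every pair was over 0.1 and no label ties the numbers, so the hearts were not treated as paired; whether a number marks shared handling was not tested. With number as a replicate block, 9 genes were sorted by the split, 4 of whose 5 hearts share a number, and 0 were called in HFD control against chow control. Under that block Dkk3 was 1.01, 1.56 and 0.88 in the 3 renin comparisons, and Comp 1.47 in HFD renin against chow control.

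The 5 hearts limit what can be said: each group holds 1 or 2, with reads of Sln totalling 74 over the other 16.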

Other observations

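The genes in this section were picked after their values were seen and have no test. Pmel, a melanosome protein, had 0.630 to 1.91 CPM in the 5 hearts and 0 to 0.454 in the others. Tyrp1, a melanin-synthesis enzyme, had 0.322 to 1.29 CPM against 0 to 0.349, and Mlana 0.135 to 0.723 against 0 to 0.377, both with overlap. Hamp, which codes for the iron hormone hepcidin, had 4.75, 2.96, 4.06, 2.61 and 1.45 CPM against 0 to 0.050, with 399 reads in the 5 hearts and 4 in the other 16. The cartilage matrix genes Clec3a and Epyc reached 1.96 and 2.09 CPM in the 5 hearts, and their highest values in the others were 0.140 and 0.489.

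Sbk3, a kinase gene related to Sbk2, had 21.2 to 42.1 CPM against 0.522 to 11.9. Gcgr, the glucagon receptor, had 0.930 to 1.85 CPM against 0.0453 to 0.421. The log2 fold change was -0.39 (SE 0.08) for the integrin gene Itga6, -0.38 (SE 0.09) for the semaphorin and VEGF co-receptor Nrp1, and -0.26 (SE 0.07) for the phosphatase gene Ptprb.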
